A study of Mus musculus with 2 samples.

Results

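Expression of 10 genes of the NRF2 oxidative stress pathway was compared in primary mouse hepatocytes. They are the transcription factor gene Nfe2l2, which encodes NRF2, its inhibitor Keap1, and the targets Nqo1, Hmox1, Gclc, Gclm, Txnrd1, Srxn1, Slc7a11 and Gpx2. The 10 genes were chosen by name as well-known members of the pathway, with earlier results of these data known. They come out of 20317 genes with a symbol in the deposited mRNA table, and 16 of the listed transcripts belong to them. The series holds 2 RNA-seq libraries of total RNA from wild-type C57BL/6J hepatocytes, 1 from mice injected intraperitoneally with oil (control) and 1 from mice injected with CCl4, a solvent that hepatocytes metabolize to a radical and that causes fibrosis when given repeatedly. The labels give a 20% solution in mineral oil at 2.5 ml CCl4 per kilogram, 2 injections per week and 8 weeks, whereas the study's methods give male mice that were 5 weeks old and 4 weeks of injection. The number of mice behind a library is not given in the sources used here. With 1 library per condition there is no replicate check, no test across samples could be run, and a difference between the conditions cannot be told apart from a difference between 2 hepatocyte preparations.

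NRF2 is a transcription factor that is held at a low level because KEAP1 presents it to a ubiquitin ligase. Electrophiles and oxidants modify cysteines of KEAP1, NRF2 then accumulates, pairs with a small MAF protein and binds antioxidant response elements near its target genes. In liver its targets supply glutathione and NADPH, reduce peroxides and conjugate reactive metabolites, and the response is largely set through the stability of the NRF2 protein, which RNA-seq does not measure.

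The pathway genes lay on both sides of the control after CCl4. Of the 10 genes, 8 were above 0 in both libraries, and of these 4 were higher and 4 lower than in the control. Nqo1 and Hmox1 were higher by more than 2-fold, Gclc was lower by more than 2-fold, and the other 5 lay within 2-fold. Slc7a11 and Gpx2 were listed at 0 in both libraries. Values are RPKM, that is reads scaled to the length of the transcript and the size of the library, and where a gene has several transcripts, that with the highest mean value was taken. Fold changes are log2 of CCl4 over control with 0.1 RPKM added to each value, and a gene counts as called when this is at least 1 in size (2-fold). The median log2 fold change of the 8 genes was -0.050, between -1.12 and 1.51. Across all 10689 genes above 0 in both libraries the median was 0.30, so that 3 of the 8 genes were above and 5 below the median gene. Beside the 4 of 8 higher genes, 67.6% of all genes were above the control.

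Depth and cell content bear on every value. Read totals were recovered from short noncoding genes, whose RPKM values move in steps of single reads. These steps put the library totals at 57992583 reads (control) and 64655569 reads (CCl4), at which 199 of 206 and 212 of 219 such genes came out whole to within 0.03 reads. Comparison tables list every value under 1 RPKM as 0. Hepatocyte markers were abundant in both libraries, but all 6 markers with values in both were lower after CCl4, 3 of them by at least 2-fold. With Afp, which was listed at 0 in the control, the summed level of the 7 markers went from 15587 to 9560 RPKM. Alb was at 8656 and 6476 RPKM and Apoa1 at 4086 and 1650 RPKM. The median log2 fold change of the 6 hepatocyte markers was -1.02, between -2.33 and -0.42, the last being that of Alb. Summed markers of other cells went from 82.7 to 949 RPKM for stellate cells and myofibroblasts (10 of 10 higher by at least 2-fold, Pdgfrb listed at 0 in the control), from 1389 to 2939 RPKM for Kupffer cells and macrophages (6 of 9) and from 500.4 to 859 RPKM for sinusoidal endothelium (2 of 7). They went from 50.9 to 170.2 RPKM for cholangiocytes (2 of 4, Sox9 and Cftr listed at 0 in both) and from 294.5 to 205.4 RPKM for neutrophils (1 of 3). Beside these marker counts, 14.3% of all 10689 genes were higher and 5.48% lower by at least 2-fold. Of the erythroid markers, Hba-a1 was at 906.7 and 623.4 RPKM, Hbb-bs at 1091 and 773 RPKM, and Slc4a1 was listed at 0 after CCl4. In such bulk samples fewer cells of a type and less RNA per cell cannot be told apart, and the part of these shifts in the pathway genes was not tested.

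**Figure D1:**
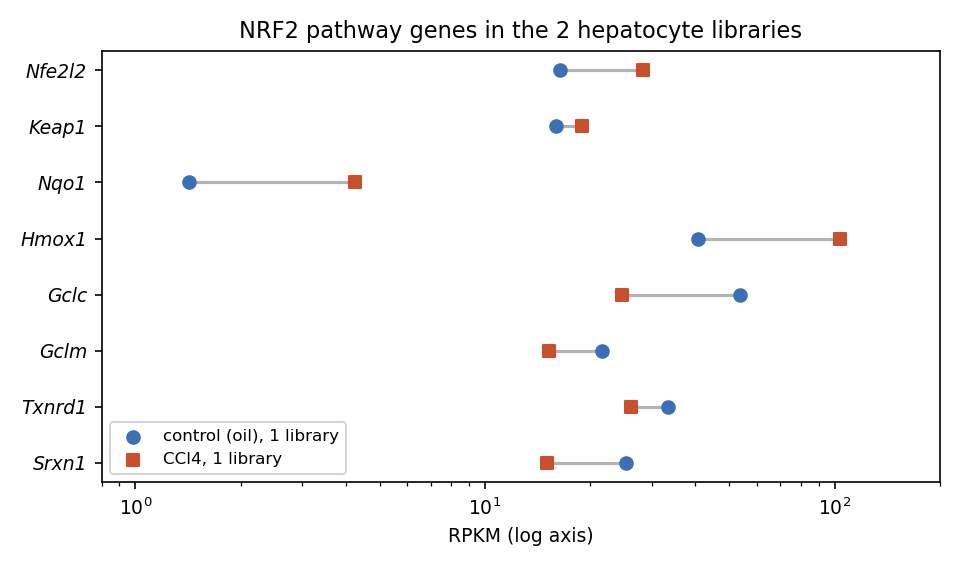
RPKM of the 8 pathway genes with values in both libraries (log axis), 1 control library (circles) and 1 CCl4 library (squares), with a line joining the 2 values of a gene. Hmox1 is the highest gene after CCl4 at 103.9 RPKM and Nqo1 the lowest in both libraries, and the square lies left of the circle for Gclc, Gclm, Txnrd1 and Srxn1.

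Antioxidant response elements can be looked for in the promoters, which are shown here for Srxn1 and Nqo1 because these are targets that differed in direction. RefSeq promoters (GRCm38.p6, 250 bases before to 50 after a start) were matched by symbol for 8 of the 10 genes, with 10 starts, and Gclc and Hmox1 had no entry. The element was searched on both strands as TGACNNNGC and as TGAGNNNGC, together with TGAGTCA, which can overlap the second. Of all 32851 promoters of the same length, 12.4% hold TGACNNNGC, 17.6% hold TGAGNNNGC, 27.8% hold either and 5.20% hold TGAGTCA. Of the 8 genes, 5 hold either element (Nfe2l2, Gclm, Txnrd1, Srxn1 and Slc7a11), and Keap1, Nqo1 and Gpx2 hold neither in this window. Counted by start, as the share of all promoters is, 5 of 10 hold either, since 1 of the 3 Txnrd1 starts does. Srxn1 had the most matches, with 1 TGACNNNGC that begins after the start, 2 TGAGNNNGC that begin 158 and 45 bases before it, and 2 TGAGTCA at 102 and 45 bases, the last of them inside the element at 45 bases. The Srxn1 sequence is chr2:152105274-152105523 on the plus strand, the Nqo1 sequence chr8:107403206-107403455 on the minus strand, each the 250 bases before the start, 5′ to 3′ in the direction of the gene. Capitals mark the matches, as read on the strand of the gene.
Srxn1: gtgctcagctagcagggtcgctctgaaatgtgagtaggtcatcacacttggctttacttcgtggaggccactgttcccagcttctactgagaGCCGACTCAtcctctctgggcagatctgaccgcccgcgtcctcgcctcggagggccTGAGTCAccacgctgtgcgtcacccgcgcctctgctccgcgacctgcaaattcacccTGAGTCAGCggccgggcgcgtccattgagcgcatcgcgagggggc
Nqo1: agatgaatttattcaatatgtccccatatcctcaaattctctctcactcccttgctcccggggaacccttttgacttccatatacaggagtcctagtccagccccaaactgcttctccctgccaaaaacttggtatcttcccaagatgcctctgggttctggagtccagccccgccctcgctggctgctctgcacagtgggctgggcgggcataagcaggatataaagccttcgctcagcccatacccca

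The other matches are printed as windows of 29 bases in the direction of the gene, with the match in capitals, to show the element in genes of either direction. It begins 240 bases before the start in Nfe2l2 (chr2:75704885-75704913, minus strand), 134 in Gclm (chr3:122245413-122245441, plus strand), 92 before the second start of Txnrd1 (chr10:82859104-82859132, plus strand) and 97 in Slc7a11 (chr3:50443692-50443720, minus strand). In Gclm, Txnrd1 and Slc7a11 the element reads on the opposite strand, so the capitals show its reverse complement.
Nfe2l2: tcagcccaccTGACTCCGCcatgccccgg
Gclm: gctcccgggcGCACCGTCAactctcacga
Txnrd1: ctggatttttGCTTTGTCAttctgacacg
Slc7a11: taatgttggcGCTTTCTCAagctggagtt
A match is a description of these letters and not a binding site. Genes with a match were on either side, with Nfe2l2 higher and Gclm, Txnrd1 and Srxn1 lower in the CCl4 library, and Nqo1, the gene with the largest fold change of the 8, had none in this window.

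The regulators came first. Nfe2l2 (NM_010902, chr2:75675513-75704663) was at 16.4 RPKM in the control and 28.4 RPKM in the CCl4 library, 1.74 times as high, with a log2 fold change of 0.79. This is below 2-fold, and 0.50 above the median gene. The reads behind the values were at least 2342 and 4534, and the log2 ratio of reads was 0.80 with a 95% exact Clopper-Pearson interval of 0.72 to 0.87. These intervals cover counting error only, since reads that are PCR copies are not independent molecules, and they say nothing about the spread between mice. Because the recovered reads are lower bounds, an interval can be wider than the full read number would give. Keap1 (chr9:21229730-21239332) was at 15.9 RPKM in the control and 18.9 RPKM after CCl4 for NM_001110307, a log2 fold change of 0.24 that is 0.05 below the median gene. With at least 2032 and 2687 reads, its interval ran from 0.16 to 0.33. Its other 3 transcripts were between 12.3 and 15.2 RPKM in the control and between 14.5 and 18.1 RPKM after CCl4, each with a log2 fold change of 0.24. These transcripts share exons, so their agreement is not independent. Nfe2l2 and Keap1 stood at nearly the same level per length in the control, 1.03 to 1, and at 1.502 to 1 in the CCl4 library.

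Hmox1 and Nqo1 were the targets with higher values after CCl4. Hmox1 (NM_010442, chr8:75093618-75100593) encodes heme oxygenase 1, which opens heme to biliverdin, iron and carbon monoxide. It was at 40.6 RPKM in the control and 103.9 RPKM in the CCl4 library, 2.56 times as high, a log2 fold change of 1.35 with at least 1841 and 5245 reads. The interval of the log2 read ratio was 1.28 to 1.43. Hmox1 thereby moved from rank 1102 to rank 395 among the 10689 genes, and became the most abundant of the 10. The hepatocytes had been purified on a density gradient, and the study's methods describe a check of such preparations by qRT-PCR, with Kupffer cell genes among those measured. Macrophages that clear red cells also express Hmox1, and in these libraries the Kupffer cell and macrophage markers moved in the same direction, C1qc from 247 to 611 RPKM and Cd5l from 278 to 595 RPKM, whereas Clec4f, a defining Kupffer cell marker, was at 283 and 255 RPKM. The part of these cells in the Hmox1 values was not tested.

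Nqo1 (NM_008706, chr8:107388225-107403205), a quinone reductase that is widely used as a readout of NRF2, was scarce in the control at 1.42 RPKM and was at 4.24 RPKM after CCl4. It was 2.98 times as high, with a log2 fold change of 1.51, the largest of the 8 genes with a fold change and above 94.9% of all genes counted by rank. The recovered depth was the lowest of the 8 in the control, at least 128 and 425 reads, and the interval was accordingly the widest, from 1.29 to 1.87. At a rank of 7868 among 10689 genes it was still a low gene in the CCl4 library, with a level per length that was 0.041 of that of Hmox1.

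Of the subunits of the enzyme that starts glutathione synthesis, Gclc was lower by more than 2-fold after CCl4 and Gclm was within 2-fold. Gclc (NM_010295, chr9:77754535-77794489) encodes the catalytic subunit of glutamate-cysteine ligase, the rate-limiting enzyme of glutathione synthesis. It was the most abundant of the 10 genes in the control at 53.8 RPKM and was at 24.6 RPKM in the CCl4 library, 2.18 times lower, a log2 fold change of -1.12. With at least 8756 and 4473 reads, the interval of the log2 read ratio was -1.18 to -1.07. Only 4.40% of all genes were at or below this fold change. Gclm (NM_008129, chr3:122245487-122267215), which encodes the modifier subunit of the same enzyme, was at 21.6 RPKM in the control and 15.2 RPKM after CCl4, a log2 fold change of -0.50 with an interval of -0.73 to -0.27 from at least 345 and 272 reads. Gss, which encodes the enzyme of the next step and is no member of the 10, was at 23.0 and 14.8 RPKM, with a log2 fold change of -0.64. The intervals of both subunits did not overlap, and the level of Gclc to Gclm per length went from 2.50 to 1.62.

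Srxn1 (NM_029688, chr2:152105524-152111376), whose promoter is shown above, encodes sulfiredoxin, which restores overoxidized peroxiredoxins. It was at 25.3 RPKM in the control and 15.1 RPKM in the CCl4 library, a log2 fold change of -0.74 with an interval of -0.83 to -0.66 from at least 2812 and 1869 reads. Txnrd1 (chr10:82833951-82897724), which encodes the cytosolic thioredoxin reductase, was at 33.3 RPKM in the control and 26.2 RPKM after CCl4 for NM_001042513. Its log2 fold change was -0.35, with an interval of -0.41 to -0.28. The other 3 Txnrd1 transcripts, which share exons with it, had log2 fold changes between -0.35 and -0.34. Neither Srxn1 nor Txnrd1 was past 2-fold. All 4 lower genes, Gclc, Gclm, Srxn1 and Txnrd1, were between 15.1 and 26.2 RPKM after CCl4, compared with 21.6 to 53.8 RPKM in the control.

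Slc7a11 (NM_011990, chr3:50364936-50499087), the light chain of the cystine importer that supplies cysteine for glutathione, was listed at 0 in both libraries, and so was Gpx2 (NM_030677, chr12:76792335-76795554), a glutathione peroxidase of epithelia such as the gut. A listed 0 stands for a value under 1 RPKM, so the listed values show neither an absence of the mRNA nor a change between the libraries. No fold change is given, since the authors' own fold-change column was not used. Such listings were common, since 8305 of the 20317 genes were at 0 in both libraries. Slc3a2, the heavy chain that pairs with the Slc7a11 product, was at 20.8 RPKM in the control and 29.96 RPKM after CCl4, with a log2 fold change of 0.53.

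**Figure D2:**
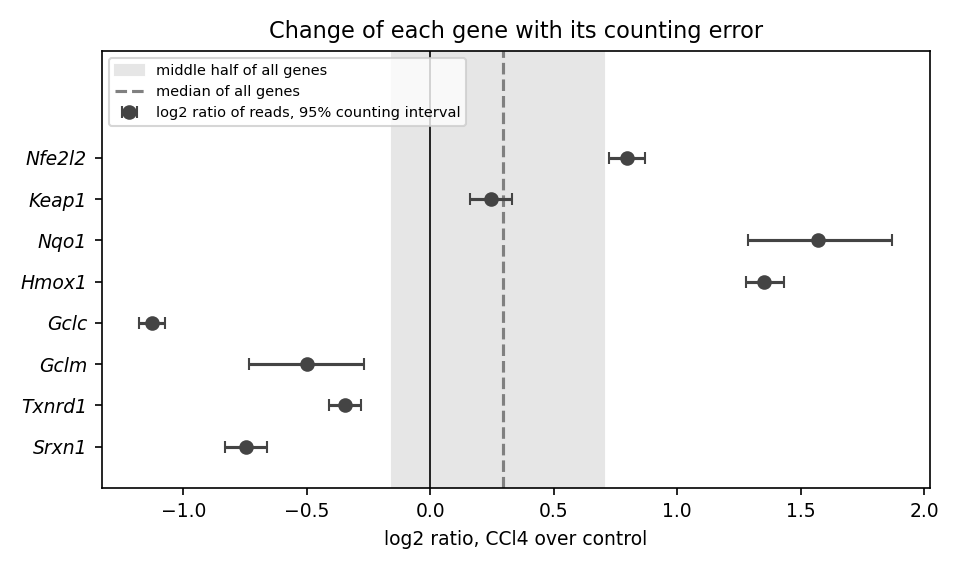
Log2 ratio of recovered reads, CCl4 over control, for the 8 genes with values (points), with 95% exact counting intervals (bars) that leave out variation between mice. The dashed line is the median of all 10689 genes at 0.30 and the grey band the range between their quartiles, from -0.15 to 0.70. Nqo1, Hmox1 and Nfe2l2 lie right of the band, Gclc, Gclm, Txnrd1 and Srxn1 left of it, and Keap1 within it.

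These counts can be read against all genes. Of the 10689 genes, 19.8% were past 2-fold, 14.3% higher and 5.48% lower, beside 2 of the 8 pathway genes higher (Nqo1 and Hmox1) and 1 of 8 lower (Gclc). No interval of the 8 genes reached 0, so at these library totals their differences exceed the counting error of independent reads. The intervals do not allow for reads that are PCR copies, and the spread between preparations is unknown. The choice of scaling moves all values together. Dividing the CCl4 values by the median ratio of all genes, 1.23, lowered every log2 ratio by 0.30, turned Keap1 to -0.056 and brought Srxn1 past 2-fold at -1.04. Scaling to the same summed mRNA RPKM raised the ratios by 0.21, put Nfe2l2 past 2-fold at 1.01 and left Gclc short of it at -0.91. The other 7 genes kept their direction under each of the alternatives run, and Nqo1 and Hmox1 stayed above 2-fold.

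**Figure D3:**
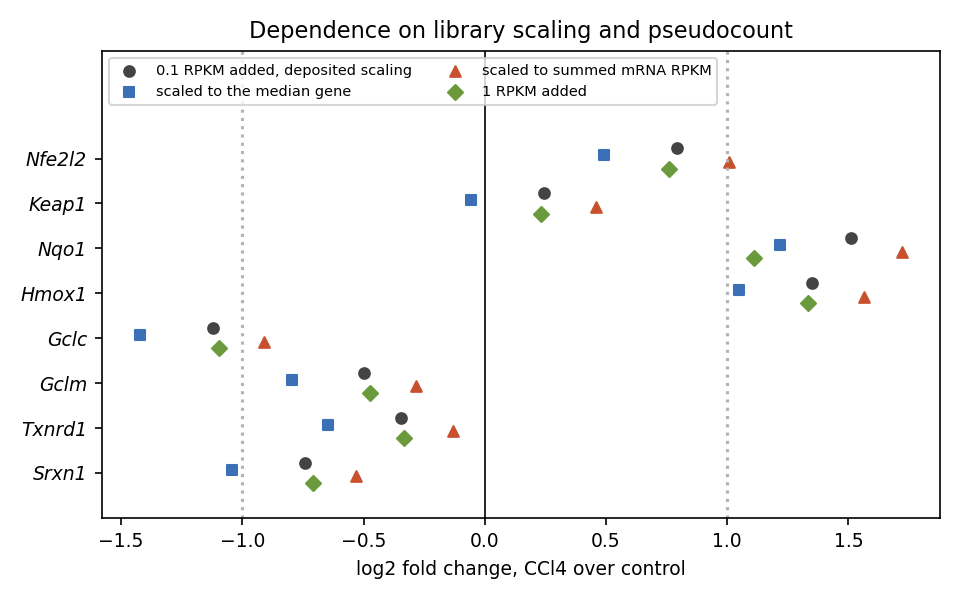
Log2 fold change, CCl4 over control, of the 8 genes with 0.1 RPKM added at the deposited scaling (circles), after scaling to the median gene (squares), after scaling to the summed mRNA RPKM (triangles) and with 1 RPKM added (diamonds), with dotted lines at 2-fold. The points of Nqo1 and Hmox1 lie right of the upper line under all 4, and Keap1 alone has points on both sides of 0.

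A wider set of 72 genes around the pathway, also chosen with earlier results of these data known, was described by list. Of these genes, 70 had values in both libraries. Past 2-fold, 10 of the 70 (14.3%) were higher and 10 (14.3%) were lower, beside 14.3% and 5.48% of all genes. This balance depended on the scaling. With scaling to the median gene 7 were higher and 16 lower, beside 854 and 1038 of the 10689 genes. With scaling to the summed mRNA RPKM 13 were higher and 4 lower, beside 2294 and 388. As deposited, the median log2 fold change of the 70 genes was -0.019, compared with 0.30 for all genes. Of the regulators of NRF2, 0 of 11 were higher and 1 lower by at least 2-fold, with a median of 0.012. As deposited 6 of 11 were above the control, which became 1 of 11 with scaling to the median gene and 8 of 11 with scaling to the summed mRNA RPKM. Of all genes, 67.6% were above the control as deposited and 77.5% with the second scaling, while the first puts as many above as below, and the direction counts of the other lists have the same background. The gene past 2-fold was Maff, a small MAF partner, at 4.13 RPKM in the control and 1.74 RPKM after CCl4 (log2 fold change -1.20), and it was within 2-fold with 1 RPKM added or with scaling to the summed mRNA RPKM. Sqstm1, the autophagy adaptor that can bind KEAP1, was at 206.2 and 137.8 RPKM (-0.58), and Nfe2l1, a relative of Nfe2l2, at 22.5 and 26.3 RPKM (0.23).

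The glutathione system had 3 of 11 genes higher and 1 lower by at least 2-fold, beside 14.3% and 5.48% of all genes, with a median of 0.035. After scaling to the median gene 3 were higher and 3 lower, beside 854 and 1038 of the 10689 genes. The 3 higher genes as deposited were all glutathione peroxidases that were scarce in the control. Gpx3, the secreted form, went from 2.64 to 14.6 RPKM, Gpx7 from 1.41 to 7.35 RPKM and Gpx8 from 1.65 to 8.37 RPKM, with log2 fold changes of 2.42, 2.31 and 2.28. The abundant Gpx1 was at 1463 RPKM in the control and 844 RPKM after CCl4 (-0.79), and Gpx4, which reduces lipid peroxides, at 206.5 and 214.6 RPKM (0.06). Chac1, which degrades glutathione, was lower at 5.30 and 1.31 RPKM (-1.94). Ggt1 was at 1.51 RPKM in the control and listed at 0 after CCl4. Stellate cell and myofibroblast markers were on the same side as these 3 peroxidases, with log2 fold changes between 1.21 (Stx2) and 5.39 (Col1a1) in the 10 with values and a median of 3.51, Col3a1 at 19.6 and 290.1 RPKM and Dcn at 36.1 and 213.9 RPKM, and their part was not tested.

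In the thioredoxin and peroxiredoxin system, 1 of 12 genes was higher at all in the CCl4 library, beside 67.6% of all genes, a count that became 7 of 12 with scaling to the summed mRNA RPKM, beside 77.5%. The gene above the control as deposited was Txnip, which encodes an inhibitor of thioredoxin, at 75.6 and 149.8 RPKM (0.99). Prdx6, a peroxiredoxin with phospholipase activity, was the gene past 2-fold, at 90.6 RPKM in the control and 39.7 RPKM after CCl4 (-1.19). With scaling to the summed mRNA RPKM Prdx6 was within 2-fold and Txnip past it. Prdx1 was at 217.8 and 150.9 RPKM (-0.53) and Prdx5 at 208.6 and 153.6 RPKM (-0.44). The median of the list was -0.13. Of the superoxide dismutases and catalase, 3 of 4 were below the control, with a median of -0.85. Past 2-fold, 1 was higher and 1 lower, beside 14.3% and 5.48% of all genes. After scaling to the median gene the 3 below the control were all lower by at least 2-fold, beside 1038 of the 10689 genes. Cat was at 410.3 RPKM in the control and 170.0 RPKM after CCl4 (-1.27), Sod1 at 410.4 and 234.7 RPKM (-0.81) and Sod2, the mitochondrial form, at 36.9 and 19.7 RPKM (-0.90), whereas the secreted Sod3 was at 4.01 and 48.5 RPKM, with the largest log2 fold change of the 70 genes, 3.56.

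Heme breakdown and ferritin genes, the list closest to Hmox1 by function, were all 6 above the control beside 67.6% of all genes, and 5 of 6 after scaling to the median gene, with a median of 0.67. Slc48a1, a heme transporter of the lysosome, was past 2-fold at 14.2 RPKM in the control and 30.4 RPKM after CCl4 (1.09). Blvra, a biliverdin reductase, was at the threshold with 7.07 and 14.2 RPKM (0.99), and passed it with nothing added or with scaling to the summed mRNA RPKM. The ferritin chains Ftl1 and Fth1 were at 1848 and 2810 RPKM (0.61) and at 336 and 557 RPKM (0.73). Of the genes that supply NADPH, 2 of 6 were higher by at least 2-fold, beside 14.3% of all genes, both of the oxidative pentose phosphate pathway. G6pdx was at 7.47 RPKM in the control and 15.9 RPKM after CCl4 (1.07) and Pgd at 10.8 and 24.4 RPKM (1.17), whereas Idh1 was at 104.9 and 67.3 RPKM (-0.64) and Taldo1 at 76.3 and 103.6 RPKM (0.44). After scaling to the median gene neither G6pdx nor Pgd was past 2-fold, and the same held for Slc48a1, and with 1 RPKM added G6pdx was within 2-fold.

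Among 20 detoxification enzymes and exporters that are known as NRF2 targets, 3 were higher and 6 lower by at least 2-fold, beside 14.3% and 5.48% of all genes, with a median of -0.0011. This balance depended on the scaling. With the summed mRNA RPKM 4 were higher and 2 lower, beside 2294 and 388 of the 10689 genes, and with the median gene 3 were higher and 8 lower, beside 854 and 1038. With 1 RPKM added 3 were higher and 4 lower, beside 1077 and 509 of the 10689 genes. Gstm3 went from 11.4 to 89.4 RPKM (2.96), Cbr3, a carbonyl reductase, from 1.82 to 9.37 RPKM (2.30) and Akr1b8, an aldo-keto reductase, from 5.65 to 19.2 RPKM (1.75). Gsta1 was listed at 0 in the control and at 7.13 RPKM after CCl4. On the other side were Gstp1 at 657 and 216.4 RPKM (-1.60), Osgin1 at 26.8 and 9.01 RPKM (-1.56), Gsta3 at 646.9 and 299.3 RPKM (-1.11) and Ugt2b35 at 24.7 and 11.5 RPKM (-1.10). Glutathione S-transferases form families of similar sequence, and how reads shared between copies were counted is not given in the sources used here, so the values of single Gst genes are uncertain.

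**Figure D4:**
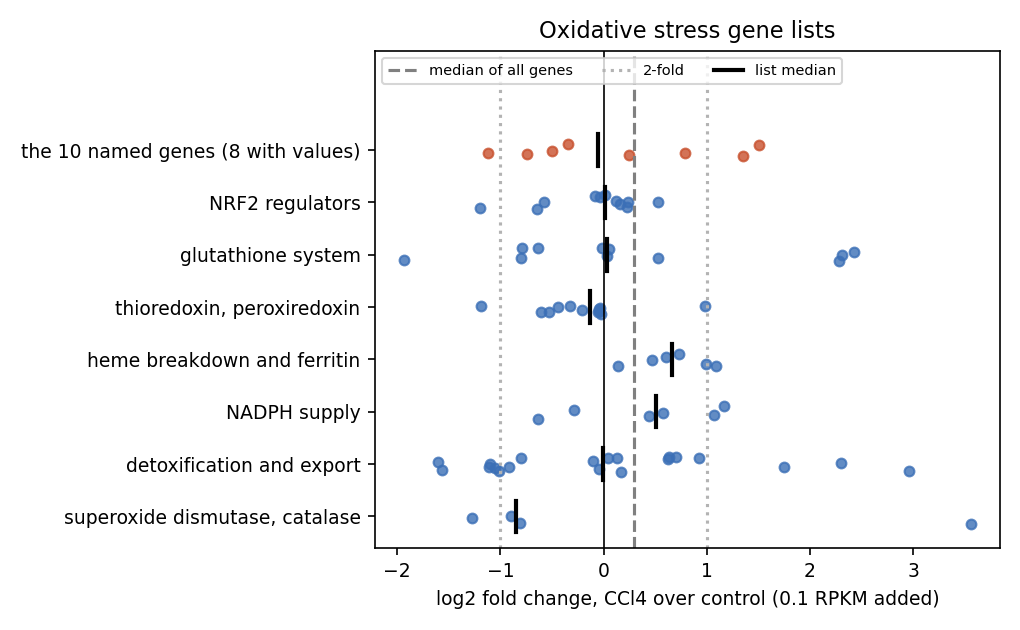
Log2 fold change, CCl4 over control with 0.1 RPKM added, of single genes (points) in the 10 pathway genes and in 7 related lists, with list medians (black bars), 2-fold (dotted) and the median of all genes at 0.30 (dashed). The heme and NADPH lists have medians right of the dashed line, at 0.67 and 0.51, and the other lists and the 10 genes have medians left of it.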

How the data were processed

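RNA-seq of 2 libraries was analysed, 1 per condition, grouped by the treatment labels. The submitters' processing notes name CASAVA 1.4, TopHat2 and mm10. The counting program, strand and annotation version are not given in the sources used here. The authors deposited RPKM values for mRNAs, annotated lncRNAs and new lncRNAs, with values under 1 RPKM listed as 0 in the comparison tables. On the new lncRNAs, also deposited with read counts and uncut RPKM, all 1354 control and 1347 CCl4 values under 1 were listed so. The authors' own log2 changes, p-values and q-values in these tables were not used.

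RefSeq identifiers were given symbols from a GRCm38.p6 table (27049 of 27457 mRNA transcripts matched). All 10 pathway genes and their lists were chosen with earlier results of these data known. Named besides are list genes past 2-fold (up to 4 per direction), those at 0 in 1 library and the 2 most abundant per list. Clec4f, Slc3a2, Gss, Txnip, Blvra, Sod2, Stx2 and Col1a1 were named after their values were seen. Cd68 and Ly6g matched no row. Tf was entered under its human symbol and is not in the hepatocyte sum; the mouse gene Trf was at 3657 RPKM in the control and 1914 RPKM after CCl4.

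Reads were recovered as the shortest transcript length from 200 to 30000 bases that gives whole reads in both libraries, a lower bound. On 1397 new lncRNAs it equalled the deposited counts in 81.0% and exceeded them in 0. The scripts were also tested on simulated data. Intervals are 95% exact Clopper-Pearson. Alternatives were pseudocount, scaling, fold, low-value filter and transcript choice. Python 3.11.15, numpy 2.4.6, pandas 2.3.3, scipy 1.17.1 and matplotlib 3.10.9 were used.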

Additional observations from a re-analysis of the deposited data

Results flagged for a closer look

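A new lncRNA outside the mRNA table, TCONS_00078733 (chr8:107292412-107293150, plus strand, 95075 bases from Nqo1), had more reads in the CCl4 library than in the control, 27 compared with 7. The log2 ratio of reads, scaled to the totals of 62438205 and 70960846 reads that the new lncRNA table implies and with 0.5 reads added, was 1.69, with an exact counting interval of 0.53 to 3.21. Nqo1 itself was higher in the same library, and a relation between the transcripts was not tested.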

How the results depend on the processing

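No paired analysis was possible because each condition has 1 library. Recovered reads and other transcripts as alternatives were chosen after seeing the data. Scaling to the median gene gave log2 fold changes of 0.49 for Nfe2l2, -0.056 for Keap1, 1.22 for Nqo1, 1.05 for Hmox1, -1.42 for Gclc, -0.80 for Gclm, -0.65 for Txnrd1 and -1.04 for Srxn1. Scaling to the summed mRNA RPKM gave 1.01 for Nfe2l2, 0.46 for Keap1, 1.57 for Hmox1, -0.91 for Gclc, -0.13 for Txnrd1 and -0.53 for Srxn1, and without the 10 highest transcripts 0.96, 0.41, 1.52, -0.96, -0.18 and -0.58 in the same order. With 1 RPKM added Nqo1 was at 1.11. The 1 lower call among the 8 genes became 2 with median scaling or at 1.5-fold and 0 with either summed scaling. At a threshold of 2 on the log2 scale, 0 were higher and 0 lower. Of all genes, 1527 higher and 586 lower became 854 and 1038 with median scaling (45.1% of calls higher compared with 72.3%), 2294 and 388 with summed scaling (85.5% higher), 188 and 75 at the log2 threshold of 2, and 3367 and 1288 at 1.5-fold. Without the 10 highest transcripts 82.8% of calls were higher. Of the 70 list genes, 10 higher became 6 at the log2 threshold of 2 and 18 at 1.5-fold, and 10 lower became 16 with median scaling, 4 with summed scaling, 6 without the 10 highest transcripts, 0 at the log2 threshold of 2 and 20 at 1.5-fold. The 74 other values for the 8 genes, all genes and all list genes stayed within the counting interval or 1.5 times, and of 126 counts for single lists 33 moved by more. Scaling shifts all ratios alike and the thresholds change counts by construction. Depth limits Nqo1 most. The mRNAs listed at 0 in 1 library entered the alternative over genes above 0 in at least 1 library, with 1 RPKM added. In it 2239 of 12012 genes were higher and 670 lower by at least 2-fold. Those listed at 0 in both libraries were not compared, since the authors' own log2 changes were not used.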

Other observations

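The new lncRNA table holds 4 transcripts within 100 kb of 3 of the 10 genes, a search made after the values were seen. Next to Gclc on chromosome 9 lie TCONS_00082778 (chr9:77815346-77816578, 20857 bases away) with 26 reads in the control and 6 in the CCl4 library, and TCONS_00082781 (chr9:77834486-77835063, 39997 bases away) with 24 and 6 reads. Their log2 ratios of reads, scaled to the same totals, were -2.21, with an exact counting interval of -3.87 to -0.99, and -2.10, with an interval of -3.77 to -0.86, on the same side as Gclc. TCONS_00053043, 26886 bases from Gclm (chr3:122294101-122295351), had 23 and 33 reads. Its log2 ratio of reads was 0.33, on the other side from Gclm at -0.50. The interval of -0.48 to 1.17 includes 0, so a difference was not detectable at this depth. All 4 are on the plus strand in the deposited table, and each was below 1 RPKM in both libraries. Whether the pair near Gclc are parts of 1 transcript was not tested.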
